A study of Mus musculus with 10 samples.

Results

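The genes described here are 8 factors of spermatogonial differentiation and meiotic entry in the mouse, Kit, Stra8, Sohlh1, Sohlh2, Dmrt1, Dmrtb1, Rhox13 and Prdm9. They were chosen by name for their known roles, 8 of the 21969 genes of the expression matrix, and each had 1 row. Each of the 8 passed the filter on low values, FPKM 1 or more in at least 2 libraries, which left 15671 genes for testing. FPKM scales fragments by transcript length and by library size, so levels of different genes can be set side by side.

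Spermatogonial stem cells renew themselves or give rise to progenitors, which become differentiating spermatogonia under retinoic acid, the vitamin A signal that drives germ cells toward meiosis. Differentiating spermatogonia display KIT, a receptor tyrosine kinase, and induce STRA8, which is needed for the entry into meiosis. SOHLH1 and SOHLH2 are germ cell helix-loop-helix factors that act together in differentiation, DMRT1 restrains the switch from mitosis to meiosis in spermatogonia, and DMRTB1, also called DMRT6, works at the later step from mitosis to meiosis in males. RHOX13 is an X-linked homeodomain protein of differentiating spermatogonia and early spermatocytes, and PRDM9 is the histone methyltransferase of early meiotic cells that places recombination sites.

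The study followed cells of DBA/2 mice during the making of a stem cell culture, under a title about PD-L1 in self-renewing spermatogonial stem cells. Week 0 was adult testis cells sorted magnetically with an antibody to CD9, and weeks 1, 2 and 3 were such cells after that many weeks of culture. GS cells, germline stem cells, were the established cultures. The medium held 15 ng/ml GDNF and 10 ng/ml FGF2, the growth factors that maintain these stem cells, and 1% fetal bovine serum. The labels name no transgene, deletion or other agent, and do not give the age beyond adult, the number of animals or the number of GS lines. Each of the 5 groups had 2 libraries, 10 in all, made from poly(A) RNA with a strand-specific kit. The labels do not state whether the 2 libraries of a group are separate animals or cultures. P-values therefore speak of the scatter between libraries alone, which may be technical.

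Depth, read from the steps of low FPKM values, was estimated at 10.4 to 20.9 M reads (M for mega) per library. This is the library size used in the normalization, whose method is not stated, and may differ from the reads sequenced. The reads behind 3 members with a lone annotated transcript ranged from 126.8 to 433.0 per library for Rhox13, from 241.3 to 3768.7 for Sohlh1 and from 315.6 to 3647.5 for Sohlh2. Between the 2 libraries of each group r of log2(FPKM + 1) was 0.987 to 0.993 over the 15671 genes tested, which are not independent replicates. All libraries carry the label of spermatogonial stem cells, but at week 0 the 10 spermatid genes of a marker list summed to 25187 and 27014 FPKM and the 18 genes of undifferentiated spermatogonia to 111 and 117. In GS cells these sums were 7.0 and 9.02 for spermatids and 789 and 769 for undifferentiated spermatogonia. The week 0 libraries thus held much RNA of later germ cells. In bulk RNA such as this, fewer cells of a type and less RNA per cell cannot be told apart.

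Kit, the receptor, lies on chromosome 5 from 75574916 to 75656722 on the plus strand (GRCm38, ENSMUSG00000005672.12). Its libraries gave 19.4 and 20.3 FPKM (week 0), 9.7 and 8.91 (week 1), 13.1 and 15.1 (week 2), 20.5 and 18.9 (week 3), and 34.5 and 34.9 (GS cells). GS cells were the highest group and week 1 the lowest, and neither overlapped another group. Kit fell by 1.02 on the log2(FPKM + 1) scale from week 0 to week 1 (SE 0.10, limma adjusted p = 2.45e-05, adjusted over all 15671 genes as are all adjusted p-values here). It rose by 0.55 to week 2 (adjusted p = 0.00231) and by 0.46 to week 3 (adjusted p = 0.0176), where the mean of 19.7 ± 1.2 FPKM (SD, n = 2) stood beside 19.9 ± 0.67 at week 0. Without week 2 replicate 1 or week 3 replicate 1 the second rise was 0.36 or 0.40 and lost its call (adjusted p = 0.117 and 0.0944). The difference between weeks 0 and 3 was -0.01 (adjusted p = 0.924), but under quantile normalization it was 0.48 (adjusted p = 0.00265), higher at week 3. GS cells, at 34.7 ± 0.27 FPKM, exceeded week 3 by 0.79 (adjusted p = 0.00192) and week 0 by 0.78 (adjusted p = 0.000137).

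Kit is also made by Leydig cells and mast cells, so their markers are given beside it. The 8 Leydig genes summed to 1816 and 1569 FPKM (week 0), 74.8 and 82.6 (week 1) and 2.87 and 3.16 (GS cells), where 5 of the 8 were at 0 in both libraries. Insl3, a hormone of Leydig cells, fell from a mean of 1147 FPKM at week 0 to 0.587 at week 1 and was at 0 in both GS libraries. Of 8 mast cell genes only Hdc, histidine decarboxylase, passed the filter, with 14.9 and 11.3 FPKM at week 0 and 3.09 and 2.44 at week 1, and it was named after its values were seen. The other 7 were at or near 0 in all libraries, and Cpa3, a mast cell protease, was at 0 in every library but 1. Kit was thus highest in the group in which the Leydig list was lowest. The part of Leydig cells in its level at week 0 was not tested, nor was that of the later germ cells. Kit has 8 annotated transcripts, which its single row of FPKM does not separate.

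Kitl, the ligand of KIT, took another course. It had 5.4 and 6.96 FPKM (week 0), 13.4 and 12.3 (week 1), 3.8 and 2.09 (week 2), 1.64 and 2.83 (week 3), and 1.1 and 1.05 (GS cells). It was highest at week 1, when Kit was lowest, and lowest in GS cells, when Kit was highest. Kitl rose by 0.96 to week 1 (limma adjusted p = 0.00681) and fell by 1.85 to week 2 (adjusted p = 0.000394), while its later steps did not pass the test. Without week 0 replicate 1 the first rise was 0.80 (adjusted p = 0.07). Kitl is made by somatic cells of the testis. The Sertoli list, 12 genes, summed to 608 and 614 FPKM (week 0), 295 and 289 (week 1) and 28.2 and 23.9 (GS cells). The fibroblast and matrix list, 10 genes, summed to 649 and 786, 6346 and 6297, and 518 and 522 FPKM in the same groups. Which cells made Kitl was not tested.

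**Figure D1:**
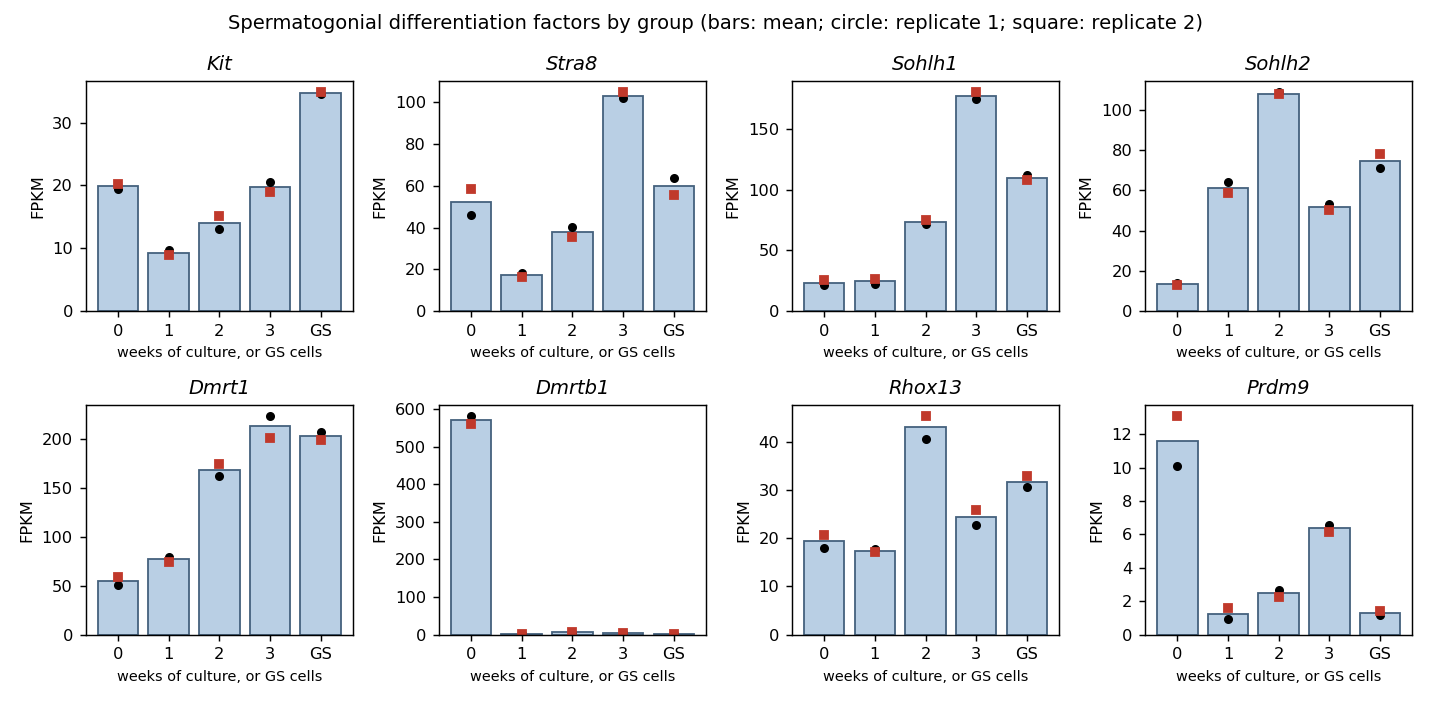
FPKM of the 8 genes (vertical axes, each from 0 on its own scale) in the 5 groups (horizontal axes: weeks of culture, then GS cells), with the mean of 2 libraries as a bar and each library as a point. Stra8, Sohlh1 and Dmrt1 had their highest means at week 3, Sohlh2 and Rhox13 at week 2, Kit in GS cells, and Dmrtb1 and Prdm9 at week 0.

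Stra8, the retinoic acid target needed for meiotic entry, lies on chromosome 6 from 34920163 to 34939344 on the plus strand (ENSMUSG00000029848.11). Its libraries gave 46.1 and 58.3 FPKM (week 0), 18.3 and 16.2 (week 1), 40.5 and 35.6 (week 2), 102 and 105 (week 3), and 63.7 and 55.8 (GS cells). Both week 3 libraries lay above all others, both week 1 libraries below all others, and GS cells overlapped week 0. Stra8 fell by 1.54 on the log2 scale to week 1 (SE 0.13, limma adjusted p = 7.93e-06), then rose by 1.10 to week 2 (adjusted p = 0.000212) and by 1.42 to week 3 (adjusted p = 0.000414). The mean at week 3 was 5.99 times that at week 1. In GS cells it was lower than at week 3 by 0.78 (log2 difference -0.78, adjusted p = 0.00535). The difference between GS cells and week 0 did not pass the test (0.20, 95% interval -0.10 to 0.50, adjusted p = 0.192), but with quantile normalization it was 0.62 (adjusted p = 0.00245) and with libraries scaled to a common sum 0.68 (adjusted p = 0.00108). Without week 0 replicate 2 it was 0.37 (adjusted p = 0.0412).

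The RefSeq start of Stra8 lies inside an exon of a longer GENCODE transcript, so only short stretches are printed, chosen because they hold the core site of retinoic acid receptors and a DMRT1-type core. Capitals mark the matched letters, and positions count from the RefSeq start, with -1 as the base before it. The 250 bases before that start held AGGTCA, the receptor core site, at -194 and -38, and ACAATGT, the core of the element that DMRT1 binds, at -145. Stretches of 24 bases on the plus strand (RefSeq, GRCm38.p6) read as follows.
Stra8 receptor site chr6:34920745-34920768: ggggtgaaaAGGTCAtcttgctcc
Stra8 receptor site chr6:34920901-34920924: tggggtaccAGGTCAgttttttac
Stra8 DMRT-type core chr6:34920794-34920817: caagttgttACAATGTtttcacca
Searched on both strands, AGGTCA stood in 14% and ACAATGT in 2.56% of the 32851 windows of the same length in the RefSeq table, and a match is a description of letters only. A direct repeat of AGGTCA with 5 bases between its copies, which stood in 0.00913% of windows, was in none of the windows searched for the 8 genes. No window was available for Dmrt1, which was therefore not searched.

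Sohlh1 lies on chromosome 2 from 25842995 to 25847248 on the minus strand (ENSMUSG00000059625.6). Its libraries gave 21.3 and 25.2 FPKM (week 0), 22.7 and 26.6 (week 1), 72.0 and 75.5 (week 2), 175 and 181 (week 3), and 112 and 108 (GS cells). Weeks 0 and 1 overlapped, and the other groups stood apart from them and from each other. The mean at week 3, 178 ± 4.3 FPKM (SD, n = 2), was 7.66 times that of 23.2 ± 2.7 at week 0. Sohlh1 rose by 1.55 on the log2 scale from week 1 to week 2 (SE 0.10, limma adjusted p = 1.02e-05) and by 1.26 to week 3 (adjusted p = 0.000253). It was lower in GS cells than at week 3 (-0.69, adjusted p = 0.00318) and higher there than at week 0 (2.2, adjusted p = 1.83e-07). The first week gave 0.08 (adjusted p = 0.483), a value whose sign and call depended on the scaling and on single libraries: it was 0.53 with quantile normalization (adjusted p = 0.0017) and -0.03 without week 0 replicate 1 or without week 1 replicate 2.

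Sohlh2, the partner of SOHLH1, lies on chromosome 3 from 55182028 to 55209957 on the plus strand (ENSMUSG00000027794.4). Its libraries gave 14 and 12.7 FPKM (week 0), 64.3 and 58.5 (week 1), 109 and 108 (week 2), 53.4 and 50.3 (week 3), and 71.3 and 78.1 (GS cells). Week 0 was the lowest group and week 2 the highest, and no groups overlapped. Sohlh2 rose by 2.12 on the log2 scale in the first week (SE 0.088, limma adjusted p = 8.39e-08), when Sohlh1 did not pass the test, and by 0.81 in the second (adjusted p = 0.000127). It fell by 1.05 from week 2 to week 3 (adjusted p = 0.000282), the interval in which Sohlh1 rose by 1.26. GS cells were above week 3 by 0.52 (adjusted p = 0.00562). On the FPKM scale the mean of Sohlh2 was 2.49 times that of Sohlh1 at week 1 and 0.291 times at week 3. Week 3 was lower than week 1 by a margin near the threshold (-0.24, adjusted p = 0.0444), and this call was lost in 9 of 19 other settings and turned to 0.04 (adjusted p = 0.743) with libraries scaled to a common sum.

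The stretches before the starts of Sohlh1 and Sohlh2 are shown because this pair parted at week 3, with E-boxes, the CANNTG letters that helix-loop-helix proteins bind, in capitals. Both are read 5′ to 3′ along the gene's own strand from RefSeq (GRCm38.p6), minus for Sohlh1 and plus for Sohlh2.
Sohlh1 chr2:25847249-25847498: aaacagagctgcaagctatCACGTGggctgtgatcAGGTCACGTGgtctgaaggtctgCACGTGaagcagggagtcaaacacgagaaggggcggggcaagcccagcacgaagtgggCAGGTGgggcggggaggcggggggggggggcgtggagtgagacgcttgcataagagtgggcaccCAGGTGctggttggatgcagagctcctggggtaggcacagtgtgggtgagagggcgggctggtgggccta
Sohlh2 chr3:55181794-55182027: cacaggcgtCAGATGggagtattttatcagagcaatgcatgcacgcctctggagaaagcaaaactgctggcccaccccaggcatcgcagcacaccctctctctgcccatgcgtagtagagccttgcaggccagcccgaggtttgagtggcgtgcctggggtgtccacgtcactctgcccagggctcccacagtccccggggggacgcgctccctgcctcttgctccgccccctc
The Sohlh1 window held 5 matches to CANNTG, at -231, -211, -192, -134 and -70, and those at -231, -211 and -192 read CACGTG. The receptor core site was found at -215, also in capitals, and overlaps the second of these. The Sohlh2 window held 1 match, at -241 from the RefSeq start, and its sequence is shown only up to the first annotated exon base. On both strands, CANNTG stood in 66.2% and CACGTG in 6.02% of the 32851 windows of 250 bases, and CACGTG is itself a form of CANNTG.

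Dmrt1, a zinc finger factor of the DM domain family, lies on chromosome 19 from 25505618 to 25604329 on the plus strand (ENSMUSG00000024837.15). Its libraries gave 50.9 and 59.3 FPKM (week 0), 79.5 and 74.8 (week 1), 162 and 175 (week 2), 224 and 201 (week 3), and 207 and 199 (GS cells). Weeks 0, 1 and 2 stood apart in rising order, and week 3 overlapped GS cells. Dmrt1 rose by 0.48 on the log2 scale to week 1 (SE 0.095, limma adjusted p = 0.00156), by 1.11 to week 2 (adjusted p = 3.62e-05) and by 0.34 to week 3 (adjusted p = 0.0402). The last of these calls was lost in 13 of 19 other settings, among them the loss of any library of weeks 1 to 3 or of GS cells, with adjusted p up to 0.202. GS cells and week 3 differed by -0.07 (95% interval -0.29 to 0.15, adjusted p = 0.678), and GS cells exceeded week 0 by 1.86 (adjusted p = 3.04e-07). Sertoli cells also make DMRT1, and the Sertoli list summed to 608 and 614 FPKM at week 0 and to 18.0 and 18.5 at week 3. Sox9, a Sertoli factor, had a mean of 2.77 FPKM at week 0, 28.3 at week 1 and 1.92 at week 3. The part of Sertoli cells in the level of Dmrt1 was not tested in any group.

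Dmrtb1 lies on chromosome 4 from 107676290 to 107684230 on the minus strand (ENSMUSG00000028610.16). Its libraries gave 582 and 561 FPKM (week 0), 1.92 and 2.29 (week 1), 5.57 and 6.51 (week 2), 4.46 and 3.86 (week 3), and 1.69 and 1.76 (GS cells). Week 0 lay far above every cultured library. The mean of 571 ± 15 FPKM (SD, n = 2) at week 0 was 272 times that at week 1 and 332 times that in GS cells, and the first step was -7.53 on the log2 scale (SE 0.12, limma adjusted p = 8.38e-10). Within culture Dmrtb1 rose by 1.18 to week 2 (adjusted p = 0.000103), was lower in GS cells than at week 3 (-0.92, adjusted p = 0.0021), and did not pass the test between GS cells and week 1 (-0.19, adjusted p = 0.232). Its difference between weeks 2 and 3 was -0.45 (adjusted p = 0.0364), a call lost in 10 of 19 other settings, among them the loss of any library but those of week 1, with adjusted p up to 0.195.

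The fall of Dmrtb1 went with that of later germ cell stages. The 10 genes of later spermatocytes summed to 7764 and 7305 FPKM at week 0 and to 107 and 84.5 at week 1, and all 10 fell. The 10 spermatid genes fell from 25187 and 27014 to 177 and 168, again all 10. Ldhc, a lactate dehydrogenase of spermatocytes, went from a mean of 3358 FPKM to 4.1, and Tnp2, a transition protein of spermatids, from 3990 to 7.85. The part of those cells in the level of Dmrtb1 at week 0 was not tested. The stretch before its start is shown because it belongs to the gene with the largest change of the 8, with its 2 E-box letters, at -249 and -60, in capitals (minus strand, RefSeq, GRCm38.p6).
Dmrtb1 chr4:107684231-107684480: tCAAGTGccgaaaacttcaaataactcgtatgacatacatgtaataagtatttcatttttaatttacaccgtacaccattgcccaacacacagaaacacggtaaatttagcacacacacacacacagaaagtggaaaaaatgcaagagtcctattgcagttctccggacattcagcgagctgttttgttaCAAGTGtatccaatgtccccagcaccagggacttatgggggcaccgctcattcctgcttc
RefSeq lists a further start for Dmrtb1, whose window held 3 matches to CANNTG.

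**Figure D2:**
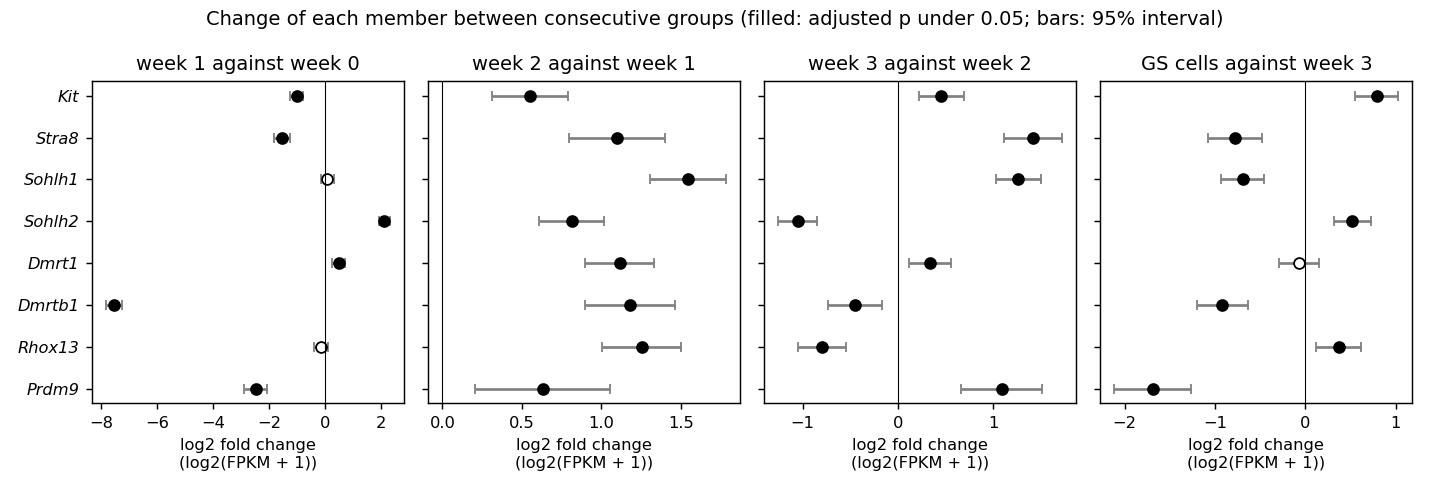
Log2 fold change on the log2(FPKM + 1) scale (horizontal axes, a separate scale per panel) of each gene between consecutive groups, with the 95% interval from limma as a bar and filled points at adjusted p under 0.05. All 8 points are filled and above 0 from week 1 to week 2, and the point of Dmrtb1 from week 0 to week 1 lies at -7.53.

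Rhox13 lies on the X chromosome from 38121219 to 38129967 on the plus strand (ENSMUSG00000050197.5). Its libraries gave 18.0 and 20.7 FPKM (week 0), 17.7 and 17.2 (week 1), 40.6 and 45.4 (week 2), 22.8 and 25.9 (week 3), and 30.7 and 32.8 (GS cells). Week 2 was the highest group, and none of the other groups reached it. Rhox13 rose by 1.25 on the log2 scale from week 1 to week 2 (SE 0.11, limma adjusted p = 3.84e-05) and fell by 0.80 to week 3 (adjusted p = 0.0022), as Sohlh2 did in the same interval. GS cells were above week 0 by 0.69 (adjusted p = 4e-04). Weeks 0 and 1 differed by -0.14 (adjusted p = 0.254), and this value was 0.29 with quantile normalization (adjusted p = 0.0382). GS cells were above week 3 by 0.37 (adjusted p = 0.0438), a call lost in 13 of 19 other settings, among them the loss of any library but those of week 0, with adjusted p up to 0.201.

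Prdm9 lies on chromosome 17 from 15543079 to 15564354 on the minus strand (ENSMUSG00000051977.16) and overlaps Gm18564, a processed pseudogene on the opposite strand. Counting by strand is not stated in the sources used here, so reads of the 2 may not be separated. Its libraries gave 10.1 and 13.1 FPKM (week 0), 0.942 and 1.58 (week 1), 2.7 and 2.25 (week 2), 6.56 and 6.17 (week 3), and 1.15 and 1.41 (GS cells). Week 0 was the highest group and week 3 the next, without overlap, while GS cells overlapped week 1. Prdm9 fell by 2.48 on the log2 scale to week 1 (SE 0.18, limma adjusted p = 3.08e-06), rose by 1.09 from week 2 to week 3 (adjusted p = 0.00537) and was lower in GS cells than at week 3 (-1.69, adjusted p = 0.000896). The mean at week 3, 6.37 ± 0.27 FPKM (SD, n = 2), was 4.96 times that in GS cells. The rise of 0.63 from week 1 to week 2 (adjusted p = 0.0188) was lost in 3 of 19 other settings, among them without week 1 replicate 1 (adjusted p = 0.105) and without week 2 replicate 1 (adjusted p = 0.102). Week 3 was below week 0 by a difference of -0.77 (adjusted p = 0.00447), which was lost with quantile normalization (-0.05, adjusted p = 0.834) and with a common sum (-0.29, adjusted p = 0.192).

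Counted over the 8 genes, the second week was the step in which all moved the same way. From week 1 to week 2, 8 of 8 rose and 0 fell, where 28.2% of all genes tested were called higher and 27.4% lower. The median change of the 8 was 1.11 on the log2 scale, and that of all genes 0.03. In the first week 2 rose, Sohlh2 and Dmrt1, and 4 fell, Kit, Stra8, Dmrtb1 and Prdm9, against 36.3% of all genes higher and 44% lower. From week 2 to week 3, 5 rose (Kit, Stra8, Sohlh1, Dmrt1 and Prdm9) and 3 fell (Sohlh2, Dmrtb1 and Rhox13), where 10.6% of all genes were called higher and 10.7% lower. With week 2 replicate 1 or week 3 replicate 1 left out, or with only those 2 groups in the fit, 5 of the 8 passed.

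From week 3 to GS cells, 3 of the 8 were higher (Kit, Sohlh2 and Rhox13) and 4 lower (Stra8, Sohlh1, Dmrtb1 and Prdm9), where 11.7% of all genes were called higher and 10.8% lower. Against week 0, GS cells were higher in 5 (Kit, Sohlh1, Sohlh2, Dmrt1 and Rhox13) and lower in 2 (Dmrtb1 and Prdm9), where 34.7% of all genes were called higher and 45.9% lower. Since each step shares a group with the next, a fall into that group and a rise out of it are not independent.

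The scaling of the libraries moved the comparisons with weeks 0 and 1. Quantile normalization moved the median of all genes from -0.14 to 0.38 between weeks 0 and 1, from 0.03 to 0.17 between weeks 1 and 2, and from -0.21 to 0.45 between week 0 and GS cells. Higher genes were 45.2% of the calls in the first of these comparisons and 59.8% after quantile normalization. In the second they were 50.7% and became 61.8%, or 66.2% with libraries scaled to a common sum, and in the third 43.0% became 61.1% and 54.1%. The 8 rises of the second week passed the test under both scalings, and so did the 4 falls of the first week. The rises called in the first week went from 2 to 4 with quantile normalization and to 3 with a common sum. Between week 0 and GS cells they went from 5 to 6 under both. With only weeks 1 and 2 in the fit, 7 of the 8 rises of the second week passed.

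Levels were also set against Ddx4 and Dazl, an RNA helicase and an RNA-binding protein of germ cells, as a percentage in each library. The 2 reference genes moved apart in the first week, Ddx4 from a mean of 199 to 71.3 FPKM (log2 change -1.46, limma adjusted p = 6.68e-07) and Dazl from 112 to 290 FPKM (1.37, adjusted p = 1.88e-05), so no ratio to them stands for a fixed number of germ cells. Sohlh1 was 11.8%, 34.6%, 72.5%, 119% and 88.0% of Ddx4 at weeks 0, 1, 2 and 3 and in GS cells (means of 2 libraries). Against Dazl it was 20.8%, 8.49%, 15.7%, 34.9% and 23.7%. Week 3 was the highest group for Sohlh1 on both.

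Stra8 fell in the first week against Dazl, from 46.6% to 5.93%, but was 26.6% ± 7.0 (SD, n = 2) and 24.1% ± 1.7 of Ddx4 in those groups, which overlapped. Kit was 10.0%, 13.0%, 13.9% and 13.1% of Ddx4 at weeks 0, 1, 2 and 3 and 27.9% ± 1.2 in GS cells. Against Dazl it was 17.8%, 3.2%, 3.01%, 3.88% and 7.48%, so GS cells were above week 0 on the first reference and below it on the second. Prdm9 was 4.25% of Ddx4 at week 3 and 1.03% in GS cells, and 1.25% and 0.274% of Dazl. Sohlh2 was 107% of Ddx4 at week 2 and 34.6% at week 3, and 23.1% and 10.2% of Dazl. The fall of Sohlh2 and the higher Sohlh1 at week 3 were thus seen against either gene.

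**Figure D3:**
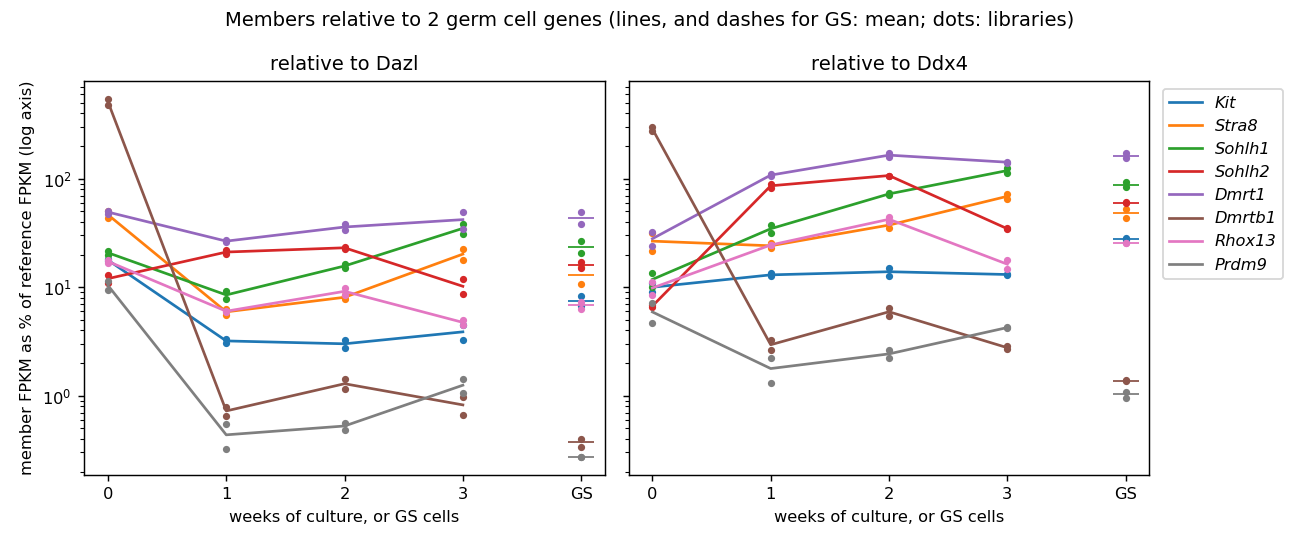
FPKM of each gene as a percentage of the FPKM of Dazl (left) or Ddx4 (right) in the same library, on a log axis, with lines through the means of weeks 0 to 3, a dash at the mean of GS cells and a dot per library. Sohlh1 reached 34.9% of Dazl and 119% of Ddx4 at week 3, its highest values in both panels.

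A list of further genes linked to spermatogonial differentiation, 15 beside the 8, followed in part. It includes Kitl, which somatic cells make and which was among those that fell in the second week. Which cells carried the changes of the list was not tested. In the second week 10 rose and 2 fell, with a median of 0.86 against 0.03 for all genes. In the third 9 rose and 1 fell (median 0.55), and from week 3 to GS cells 1 was higher and 7 lower (median -0.57). In the first week 7 rose and 5 fell (median 0.28). GS cells were above week 0 in 10 and below in 4 (median 1.04). Of all genes tested, 36.3% were called higher and 44% lower in the first week, 28.2% and 27.4% in the second. In the third they were 10.6% and 10.7%, and from week 3 to GS cells 11.7% and 10.8%. Between week 0 and GS cells they were 34.7% and 45.9%. These shares belong beside the counts of this list and of each list below.

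Upp1, uridine phosphorylase, was at 25.6 and 20.4 FPKM (week 2), 99.8 and 103 (week 3) and 20.7 and 20.0 (GS cells), a rise of 2.1 and then a change of -2.26 on the log2 scale (limma adjusted p = 8.97e-05 and 7.1e-05). Rarg, the retinoic acid receptor gamma of differentiating spermatogonia, rose by 1.67 at week 3 (adjusted p = 0.00019), from 10.8 and 11.3 FPKM to 39.5 and 35.3. It stayed at 32.5 and 31.4 FPKM in GS cells, a difference of -0.22 that did not pass the test (adjusted p = 0.258). Dnmt3b, a de novo DNA methyltransferase, had means of 10.9 (week 1), 31.7 (week 2), 45.0 (week 3) and 26.6 FPKM (GS cells), and each of these steps passed the test (adjusted p = 1.75e-05, 0.0164 and 0.0031), the middle one not in 4 of 19 other settings, among them without either week 2 library or week 3 replicate 1 (adjusted p up to 0.0966). Rhox10, a homeobox gene of the Rhox13 cluster, rose by 1.40 at week 3 (adjusted p = 0.00677) to a mean of 18.2 FPKM, in the step in which Rhox13 fell.

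Ccnd2, cyclin D2, had 10.9 and 69.6 FPKM in the 2 week 0 libraries, which lay far apart. It rose by 2.55 to week 1 (limma adjusted p = 0.00612), a value that was 1.27 without week 0 replicate 1 and 3.83 without week 0 replicate 2 (adjusted p = 0.00012 and 1.43e-06). Its means were 169, 309, 162 and 426 FPKM at weeks 1, 2 and 3 and in GS cells. These later steps, of 0.86, -0.93 and 1.38, did not pass the test (adjusted p = 0.296, 0.36 and 0.168), but each passed without either week 0 library (adjusted p up to 0.00304) and with only its 2 groups in the fit (adjusted p = 0.00249, 0.0292 and 0.0389). Ctcfl, a germ line relative of CTCF, stayed low, at 2.11 and 1.94 FPKM at week 0 and 0.363 and 0.697 at week 1.

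Genes of meiotic entry and early meiosis, 18 in all, fell in the first week in 15 and rose in 1, with a median of -1.51. In the second week 10 rose and 0 fell (median 0.52), and in the third 7 rose and 0 fell (median 0.39). From week 3 to GS cells 0 were higher and 6 lower (median -0.24), and against week 0 GS cells were higher in 2 and lower in 12 (median -1.12). Stra8 and Prdm9 were not counted in this list.

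**Figure D4:**
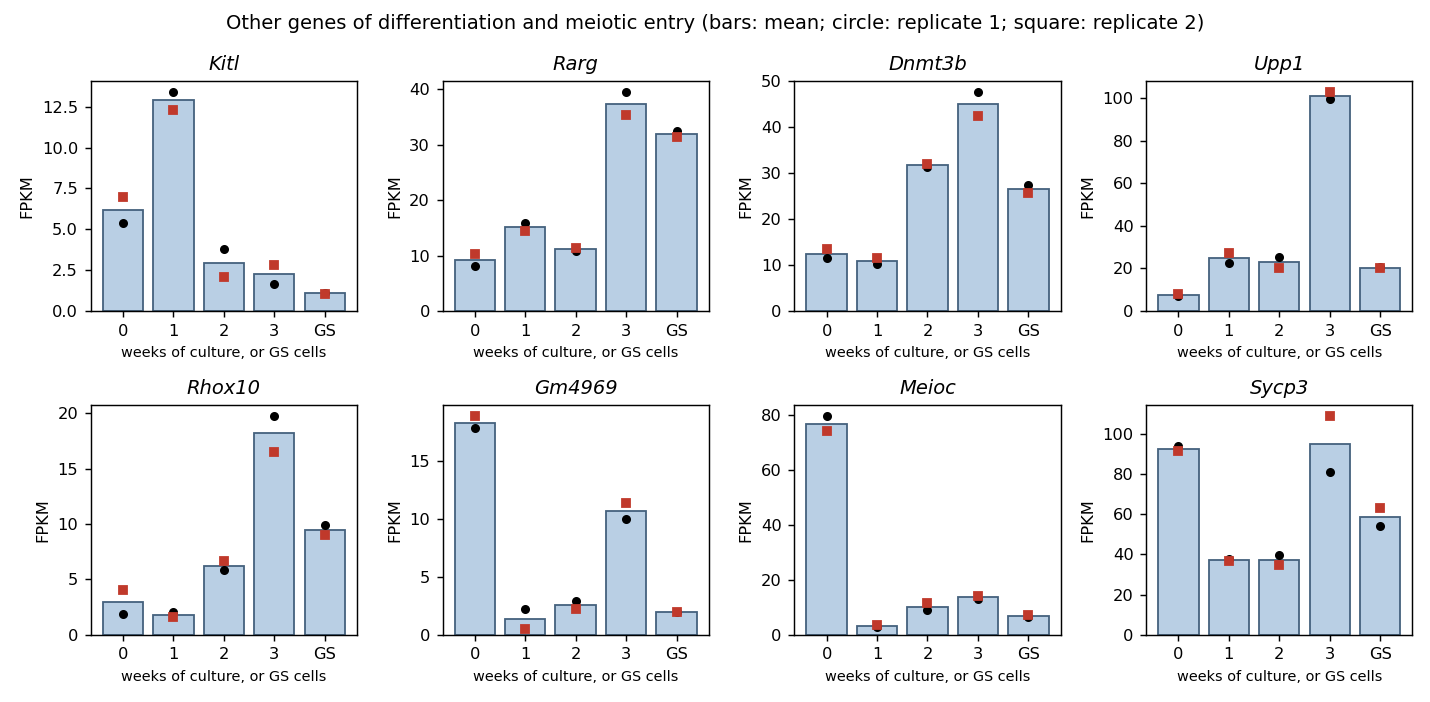
FPKM of 8 further genes of differentiation and meiotic entry (vertical axes, each from 0 on its own scale) in the 5 groups, with the mean of 2 libraries as a bar and each library as a point. Upp1 reached a mean of 101 FPKM at week 3 against 20.4 in GS cells, and Gm4969 10.7 against 1.92.

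Gm4969, the symbol in the matrix for Meiosin, the partner of STRA8, was singled out after its values were seen. It had 17.8 and 18.9 FPKM (week 0), 2.21 and 0.499 (week 1), 2.88 and 2.23 (week 2), 9.96 and 11.4 (week 3), and 1.92 and 1.92 (GS cells). Like Stra8 and Prdm9 it was higher at week 3 than at week 2 (1.72, limma adjusted p = 0.00671) and lower in GS cells (-1.997, adjusted p = 0.00357). Sycp3, of the meiotic chromosome axis, was at a mean of 37.0 (week 2), 94.7 (week 3) and 58.7 FPKM (GS cells), with log2 changes of 1.32 (adjusted p = 0.000785) and -0.67 (adjusted p = 0.0133). The second of these was lost without week 3 replicate 2 or GS cells replicate 1.

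Of 4 other early meiotic genes, none passed the test between weeks 2 and 3. Meioc, a partner of YTHDC2 in meiotic entry, had means of 77.0 FPKM at week 0, 3.24 at week 1, 10.1 at week 2 and 13.6 at week 3. The last step did not pass the test (0.40, limma adjusted p = 0.092). Ythdc2 was at 8.15 and 7.82 FPKM at week 2 and 6.85 and 8.56 at week 3. Rec8, the meiotic cohesin subunit, gave -0.14 (adjusted p = 0.556) and Dmc1, the meiotic recombinase, 0.29 (adjusted p = 0.298) in that step. The value of Dmc1 turned on the week 3 libraries: without replicate 1 it was 0.58 and passed the test (adjusted p = 0.0328), and without replicate 2 it was -0.007 (adjusted p = 1).

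The retinoic acid list, 17 of 18 genes tested, had 9 higher and 7 lower in the first week, 3 and 13 in the second, 3 and 2 in the third, 1 and 0 from week 3 to GS cells, and 5 and 9 between week 0 and GS cells. Its counts in the third week and from week 3 to GS cells were near the shares of all genes called. Its medians were 0.57, -1.02, 0.02, -0.04 and -0.68, and with quantile normalization the last comparison turned to 7 higher and 4 lower (median 0.36). Stra8 thus rose in the second week while this list mostly fell. The list mixes receptors, binding proteins and enzymes, so its direction is no measure of retinoic acid signalling in germ cells, which was not tested. Crabp1, a cellular retinoic acid binding protein, had a mean of 39.9 FPKM at week 0, 404 at week 1 and 82.6 at week 2. Cyp26b1, which breaks retinoic acid down, went from 114 FPKM at week 0 to 4.47 at week 1 and 0.656 at week 2, with log2 changes of -4.41 (limma adjusted p = 1.11e-07) and -1.71 (adjusted p = 0.000151). Cyp26a1 stayed low and was higher in GS cells, at 3.89 and 2.8 FPKM, than at week 3, at 1.71 and 1.82 (0.64, adjusted p = 0.0308), a call lost in 8 of 19 other settings, among them without any library of week 0 or week 3 or GS cells replicate 1 (adjusted p up to 0.166). Stra6, a vitamin A transporter, and Rarb, a receptor induced by retinoic acid, were low and had their highest means, 2.67 and 1.78 FPKM, at week 0. The first-week change of Stra6, -0.92, was -0.16 with quantile normalization (limma adjusted p = 0.282). That of Rarb, -0.52 (adjusted p = 0.0337), was lost in 7 of 19 other settings and turned to 0.24 with quantile normalization (adjusted p = 0.259).

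The KIT signalling list, 12 genes, had 7 higher and 3 lower in the first week, 3 and 6 in the second, 0 and 1 in the third, 2 and 0 from week 3 to GS cells, and 6 and 5 between week 0 and GS cells. Its medians were 0.69, -0.40, 0.03, 0.02 and 0.30, and its counts in the third week and from week 3 to GS cells were near the shares of all genes. Relatives and partners of the DMRT, SOHLH, RHOX and PRDM genes, 18 of 22 tested, had 7 higher and 8 lower in the first week. That is near the 36.3% and 44% of all genes. In the later comparisons, in the same order, they had 10 and 2, 2 and 1, 1 and 1, and 10 and 8. Their medians were -0.29, 0.57, 0.03, -0.09 and 0.53, the first of which was 0.12 with quantile normalization. Dmrtc2, a DM domain gene of meiosis, fell from a mean of 105 FPKM at week 0 to 2.62 at week 1 (log2 change -4.88, limma adjusted p = 2.51e-08), as Dmrtb1 did. Tcfl5, a helix-loop-helix factor of spermatocytes, fell from 182 to 38.5 FPKM (-2.21, adjusted p = 5.55e-08). Zcwpw1, the reader of the histone marks that PRDM9 places, had means of 50.3, 62.0, 94.1, 156 and 134 FPKM in the 5 groups, and its highest mean was at week 3.

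Genes of undifferentiated spermatogonia, 18 in all, mostly rose in the first and second weeks and were split in the third. In the first week 15 rose and 1 fell, in the second 13 and 0, in the third 7 and 7, from week 3 to GS cells 6 and 1, and between week 0 and GS cells 17 and 1. Gfra1, the GDNF receptor, had means of 37.1 (week 1), 50.7 (week 2), 27.2 (week 3) and 35.9 FPKM (GS cells). Nanos2, an RNA-binding protein of stem cells, had 5.6, 12.1, 7.36 and 9.45 FPKM in the same groups. Both fell at week 3 (log2 changes of -0.87 and -0.65, limma adjusted p = 0.00171 and 0.00827), in the step in which Stra8, Sohlh1, Kit and Prdm9 rose and Sohlh2 and Rhox13 fell. Zbtb16, a zinc finger factor of undifferentiated spermatogonia, rose in that step, from 98.1 to 169 FPKM (0.78, adjusted p = 0.00265), and Id4, of stem cells, from 11.3 to 15.9 FPKM (0.46, adjusted p = 0.0238). The call of Nanos2 in that step was lost without week 2 replicate 1 (adjusted p = 0.0554). That of Id4 was lost without week 2 replicate 1 (0.113), week 2 replicate 2 (0.0932) or week 3 replicate 1 (0.128), and with only the 2 groups in the fit (0.091, all adjusted p).

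The 10 genes of germ cells in general had 4 higher and 5 lower in the first week, near the 36.3% and 44% of all genes. They had 8 and 0 in the second week, 7 and 0 in the third and 1 and 4 from week 3 to GS cells. Between week 0 and GS cells they had 6 and 4. With quantile normalization the first week gave 5 higher and 4 lower. With it and with a common sum alike, GS cells gave 6 higher and 1 lower against week 0, and 1 and 6 against week 3. Their summed level was 787 and 731 FPKM at week 1, 1230 and 1209 at week 2 and 1631 and 1745 at week 3. Fibroblast and matrix genes moved with the first 2 steps: all 10 rose in the first week and all 10 fell in the second. Their sum was 649 and 786 FPKM at week 0, 6346 and 6297 at week 1 and 583 and 610 at week 2, and Col1a1, a collagen chain, had means of 43.0, 445 and 78.8 FPKM. The part of germ cell number and of fibroblast RNA in the rises of the 8 genes from week 1 to week 2 was not tested. At week 3 the fibroblast sum was 269 and 597 FPKM, and 518 and 522 in GS cells. The 6 endothelial genes summed to at most 33.3 FPKM in any library. Of 8 macrophage genes 2 rose and 4 fell in the first week, near the shares of all genes called in that step. Those that fell, named after their values were seen, were Csf1r (means of 13.3 and 0.951 FPKM), C1qa (26.7 and 0.881), C1qb (21.3 and 0.865) and Mrc1 (8.07 and 0.924). Cd68 and Cd14 rose, and Lyz2, a lysozyme, had means of 40, 59.8, 63.5 and 77.6 FPKM at weeks 0 to 3 and 2.51 in GS cells, so the list's sum, 75.0 to 142 FPKM from week 0 to week 3, was at weeks 1 to 3 mostly that of Lyz2.

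**Figure D5:**
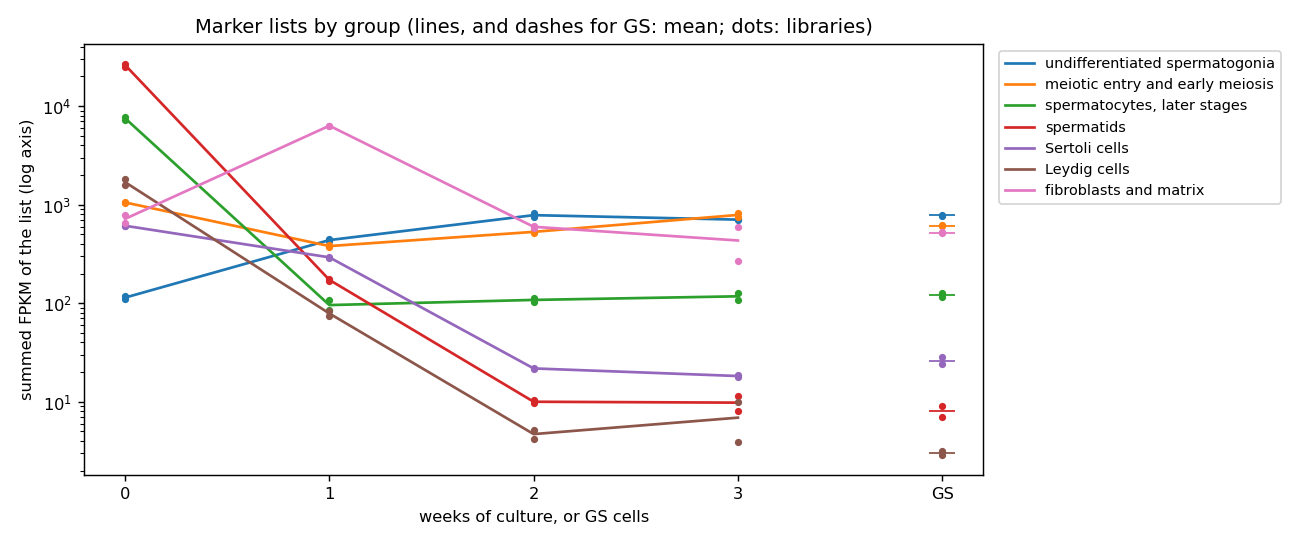
Summed FPKM of 7 marker lists (vertical log axis) in the 5 groups, with lines through the means of weeks 0 to 3, a dash at the GS mean and a dot per library. Spermatid genes fell from 25187 and 27014 FPKM at week 0 to 9.61 and 10.4 at week 2, and fibroblast genes peaked at week 1.

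Across the 10 libraries the 8 genes did not follow 1 course, as the correlations of their log2 values show. These are descriptions over libraries that share groups. Sohlh1 and Dmrt1 were the most alike (r = 0.96, n = 10), and Dmrtb1 and Prdm9 came next (r = 0.82). Sohlh2 ran against Dmrtb1 (r = -0.90) and Prdm9 (r = -0.80), and Sohlh1 and Sohlh2 had r = 0.51. Week 0 enters these values, with the highest means of Dmrtb1 and Prdm9 and the lowest of Sohlh2. Within culture both Sohlh2 and Dmrtb1 rose from week 1 to week 2 (0.81 and 1.18 on the log2 scale). Both then fell to week 3 (-1.05 and -0.45), the second of these calls lost in 10 of 19 other settings. Between week 3 and GS cells they differed in direction (0.52 and -0.92). Prdm9 rose with Sohlh2 to week 2 (0.63) and against it to week 3 (1.09). Stra8 and Sohlh1 had r = 0.73, and Kit and Stra8 r = 0.72.

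For each gene the 3 genes of the whole table with the highest r over the 10 libraries were listed. For Kit they were Dnase1l3 (r = 0.986), Zfp263 (0.972) and Rnf212b (0.97). For Stra8 they were Zswim1 (r = 0.981), Spns2 (0.978) and Mbd6 (0.973), and for Sohlh1 Polr3a (0.997), Rpusd4 (0.996) and Smagp (0.993). Mapk11 (r = 0.995), Med13l (0.995) and Cenph (0.992) were nearest to Sohlh2, and Mapk11 had means of 15.9, 29.9 and 11.1 FPKM at weeks 1, 2 and 3. Pdcd11 (r = 0.995), Igfbp2 (0.994) and Pip5k1c (0.994) were nearest to Dmrt1, and Svip (0.999), Med16 (0.999) and Smpd5 (0.998) to Dmrtb1. Rhox13 was followed by Zfp839 (r = 0.979), Rnf26 (0.972) and Zc3h7b (0.958), and Prdm9 by Il10ra (0.987), Rfx3 (0.985) and Ehd1 (0.977). Rfx3, a factor of ciliated cells, had means of 14.8, 5.11, 7.51, 10.4 and 5.76 FPKM in the 5 groups, the same order of means as Prdm9.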

How the data were processed

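Expression was measured in 10 RNA-seq libraries, 2 per group, grouped by their labels. The authors deposited normalized FPKM values for 21969 genes, 1 column per library. Per the submitters' processing notes, the tools were Cufflinks (version 2.2.1) with Cuffdiff, HISAT2 (version 2.1.0) and Bowtie2 (version 2.3.4.1), cutadapt (version 1.16) and bcl2fastq (version 2.17.1.14), on the build mm10. The role of each tool, the annotation, any filter and the normalization method are not stated there. Libraries were made from 200 ng total RNA, per the labels' protocols. FPKM hold no counts, so no count model was run. Depth was estimated: in genes with a lone transcript of at least 1500 nucleotides, low values times transcript length less a 200-nucleotide fragment were multiples of 1 read, and 95.83% to 98.5% were whole within 0.15 of a read. A value of FPKM 1 stood for 20.8 to 41.8 reads in a 2200-nucleotide transcript, and 0 of 15 housekeeping genes had a value of 0.

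Tests used log2(FPKM + 1), so the pseudocount was 1, which understates changes of low genes. One linear model over the 5 groups was fitted in R 4.3.3 by limma 3.58.1 (empirical Bayes with a trend, 5 residual degrees of freedom). P-values are two-sided, adjusted by Benjamini-Hochberg within each comparison over the 15671 genes that reached FPKM 1 in at least 2 libraries, and called at an adjusted p under 0.05. The script was tested on simulated data. Coordinates are 1-based, from GENCODE M21 (GRCm38, the assembly of mm10), where all 8 genes matched. Promoter sequences are from RefSeq on GRCm38.p6, which gave no window for Dmrt1.

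The 8 genes and the gene lists were chosen with earlier results of these data known. Genes named are the 8, a set of genes taken from the lists whatever their values, and the 3 most correlated genes per member. Gm4969 and the genes marked as such were named after their values were seen. Lists are described by counts and medians, without a set test. The alternatives were a pseudocount of 0.1 or 0.01, no filter, a filter at FPKM 5, quantile normalization, a common sum per library, no trend, a fit of only the 2 groups, a replicate block and leaving out each library.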

Additional observations from a re-analysis of the deposited data

How the results depend on the processing

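Of 760 log2 changes of the 8 genes in the 5 main comparisons (40 values under 19 alternatives), 708 kept their direction and side of the threshold, 42 lost the call, 5 gained one and 5 changed sign. Dmrt1 between week 3 and GS cells became 0.008 without week 3 replicate 1 (-0.144 to 0.008 over the left-out libraries). Rhox13 between weeks 0 and 1 became 0.288 with quantile normalization and 0.096 with a common sum, and Sohlh1 there became -0.033 without week 0 replicate 1 and -0.028 without week 1 replicate 2 (range -0.033 to 0.197). In the 5 other pairs of groups, tried after seeing the data, 713 of 760 values stayed, 30 lost the call, 5 gained one and 12 changed sign. With quantile normalization and a common sum, Kit became 0.042 and 0.06 between weeks 0 and 2 and 0.483 and 0.495 between weeks 0 and 3, and Stra8 0.004 and 0.107 between weeks 0 and 2. Quantile normalization gave 0.206 for Dmrtb1 between week 1 and GS cells, and a common sum gave 0.039 for Sohlh2 between weeks 1 and 3. Kit between weeks 0 and 3 was 0.021 without week 0 replicate 2 and 0.045 without week 3 replicate 2 (range -0.068 to 0.045). Prdm9 between week 1 and GS cells was -0.18 without week 1 replicate 1 and -0.056 without GS cells replicate 2 (range -0.18 to 0.231).

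The genes called of the 8 between weeks 2 and 3 went from 8 to 5 with only the 2 groups fitted and ranged from 5 to 7 with a library left out. Over all genes the calls in that step went from 3339 to 1880 with only the 2 groups and from 1587 to 3523 with a library left out. Between week 3 and GS cells they went from 3526 to 1326 and from 1788 to 3708. With the replicate number as a block, 6 of the 8 were called between weeks 2 and 3, as Dmrt1 (adjusted p = 0.0586) and Dmrtb1 (adjusted p = 0.0523) lost their calls, and Sohlh2 between weeks 1 and 3 lost its own (adjusted p = 0.0526). Same-numbered libraries did not deviate together (r = -0.053 to 0.046). This cannot tell whether libraries share animals, cultures or batches, as sharing need not follow the numbers. The cause of these changes was not tested. Depth limits the low values most, those of Dmrtb1 in culture and Prdm9.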
